A study of Danio rerio with 4 samples.

Results

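The bulbus arteriosus is the elastic outflow chamber of the teleost heart, placed between the ventricle and the ventral aorta, where it dampens the pressure pulse of each beat. Its wall is made by smooth muscle cells and fibroblast-like cells that secrete tropoelastin, the fibulins and microfibril proteins that organise it, and the lysyl oxidases that crosslink it. Elastin genes are duplicated in zebrafish, and elnb is the copy tied to this chamber. The cells described here were the 1547 of 34676 annotated cells that the study had placed in its cluster named Bulbus arteriosus. They were compared with the 33129 other annotated cells, library by library.

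Hearts were pooled from zebrafish embryos at 72 hours post fertilisation (hpf) and at 48 hpf, in offspring of Tg(myl7:mRFP) fish, whose cardiomyocytes are red, crossed to 1 of 2 enhancer-trap lines, sqet31Et or sqet33mi59BEt, whose EGFP marks pacemaker regions. Each line and stage gave 1 library on the 10x Genomics 3' platform, so each stage had 2 libraries, 1 per line, and a difference between pools cannot be told apart from a difference between lines. All pools carried both kinds of reporter, and each library was a pool of whole hearts, so that the pool and not the cell is the replicate. The tests of single genes below take the spread of a gene in part from other genes. Their p-values thus do not measure the spread of that gene between the pools alone. In the cluster, 663 and 512 cells came from the 72 hpf libraries and 253 and 119 from the 48 hpf libraries. Where a pair of values stands for a stage, sqet31Et comes before sqet33mi59BEt.

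The cells had a median of 1944 and 914 unique molecular identifiers (UMIs, 1 per captured RNA molecule) at 72 hpf and 1413 and 2468 at 48 hpf. Summed over cells, this gave between 452091 and 1560611 UMIs a library. Levels are given as CPM, the UMIs of a gene scaled to 1000000 UMIs of these sums. Between 9 and 29 cell barcodes were shared by any 2 libraries, at most 0.342% of the smaller one. Of the whole-series facts that touch these cells, 5 red blood cell genes summed to 2636 CPM in the sqet33mi59BEt 72 hpf cells, against 76.9 to 427 CPM in the cells of the other 3 libraries, and in the same library the other annotated cells had 4598 CPM.

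The study had named the cluster on these same libraries by elnb, by postnb, a periostin that is secreted into matrix, and by fbln5, a fibulin that guides elastin onto microfibrils. They are therefore not independent evidence of the name. These genes fitted it at 72 hpf and only in part at 48 hpf. Elnb stood at 800 and 977 CPM in Bulbus arteriosus cells at 72 hpf, against 13.6 and 20.1 CPM in the other cells. At 48 hpf, elnb had 0 UMIs in both libraries, in Bulbus arteriosus cells and in the other annotated cells alike. With 253 and 119 cells, a count of 0 allows a share of cells with a UMI of up to 1.19% and 2.52%. Elnb was thus not detectable in any annotated 48 hpf cell at this depth, while the 7200 barcodes of 48 hpf that have no annotation held 3 UMIs.

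Postnb reached 1472 and 1424 CPM at 72 hpf and 560 and 427 CPM at 48 hpf in Bulbus arteriosus cells. In the other cells it had 83.6 and 65.8 CPM at 72 hpf and 35.7 and 23.8 CPM at 48 hpf. For fbln5 the Bulbus arteriosus cells had 2816 and 731 UMIs, or 1804 and 1290 CPM, at 72 hpf, against 32.4 and 37.6 CPM in the other cells. At 48 hpf they had 26 and 11 UMIs of fbln5, over both libraries 35.2 CPM, against 2.83 and 1.85 CPM in the other cells. Both genes were thus higher than in the other cells in 4 of 4 libraries, but at very different levels at the 2 stages.

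Among the 18 clusters, Bulbus arteriosus had the highest level of each marker at 72 hpf. Over both libraries its cells had 847 CPM of elnb, against 85.6 CPM in Epicardium, the next cluster, 1459 CPM of postnb, against 406 CPM in Mesenchymal fibroblasts, and 1667 CPM of fbln5, against 227 CPM in Neural crest. They held 76.2% of the elnb UMIs of all annotated 72 hpf cells, although they were 5.64% of those cells. At 48 hpf postnb was not highest here, with 503 CPM in Bulbus arteriosus and 577 CPM in Mesenchymal fibroblasts. Over both 48 hpf libraries fbln5 was highest in Bulbus arteriosus, at 35.2 CPM, with 10.6 CPM in Mesenchymal fibroblasts. In the sqet33mi59BEt library alone the order cannot be read, with 24.3 CPM in Bulbus arteriosus and 35.4 CPM in Epicardium, there from 1 UMI in 15 cells.

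**Figure D1:**
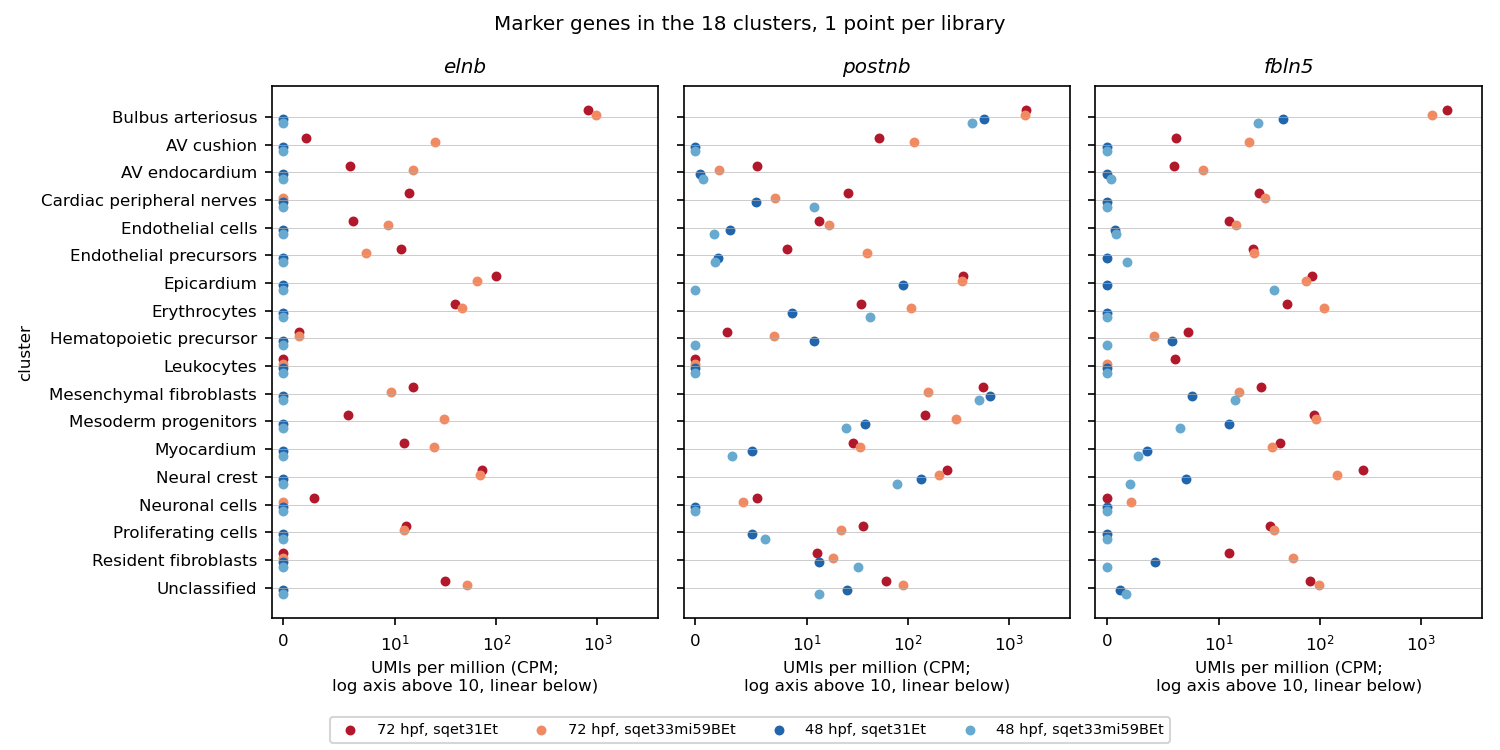
Levels of elnb, postnb and fbln5 (CPM, 1 panel per gene) in each of the 18 clusters, with 1 point per library, on an axis that is linear below 10 and logarithmic above. Bulbus arteriosus is the top row: its 72 hpf points lie at 800 to 1804 CPM in every panel, while its 48 hpf points lie at 0 for elnb, at 427 and 560 CPM for postnb and on either side of 35.2 CPM for fbln5.

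Cell by cell, elnb was detected in 49.9% and 40.0% of Bulbus arteriosus cells at 72 hpf. The share in Erythrocytes, red blood cells that should lack it, was 5 of 147 and 25 of 689 cells (the higher share 3.63%), at medians of 1029 and 679 UMIs. After each cell was thinned to 500 UMIs the shares were 23.5% and 27.3% in Bulbus arteriosus and 2.04% and 2.90% in Erythrocytes. Postnb was found in 64.6% and 48.6% of Bulbus arteriosus cells at 72 hpf and in 23.7% and 31.1% at 48 hpf, against 4.76% and 6.97% and 0.571% and 2.45% of Erythrocytes. The fbln5 shares were 70.9% and 48.6% at 72 hpf and 6.72% and 5.04% at 48 hpf, with 5.44% and 7.26% and with 0% of Erythrocytes in both 48 hpf libraries (0 of 175 and 0 of 368 cells, which allows up to 1.71% and 0.815%). All shares in Bulbus arteriosus were therefore above the Erythrocyte shares of the same library, apart from the elnb shares at 48 hpf, where both were 0.

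All 3 markers met in 35.1% and 18.9% of the cells at 72 hpf and in none at 48 hpf. No UMI of any of the 3 was found in 17.2% and 28.7% of cells at 72 hpf, against 74.3% and 67.2% at 48 hpf. With cells thinned to 500 UMIs these shares were 33.2% and 37.7% at 72 hpf and 85.8% and 86.6% at 48 hpf. The name Bulbus arteriosus thus rested, for most 48 hpf cells, on other genes than the 3 markers, and for those cells it is used here as the annotation's name only.

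Markers of other cell types were low, with exceptions. The 6 cartilage genes summed to 93.4 and 803 CPM at 48 hpf, with 106 and 205 CPM at 72 hpf. The high value was that of col2a1a, the fibrillar collagen of cartilage, which had 577 CPM in the sqet33mi59BEt 48 hpf cells, against 16.7 to 42.3 CPM in those of the other 3 libraries. Of its 261 UMIs in that library, 98.1% lay in 10 of 119 cells. The part of these cells in the stage comparisons was not tested, and the main counts below are also given without that library. Markers of myocardium were present at 684 and 836 CPM at 72 hpf and 2335 and 1057 CPM at 48 hpf, against 40288 and 39829 CPM and 73132 and 64788 CPM in the Myocardium cluster. Summed epicardial genes were higher than in the other annotated cells in 4 of 4 libraries, at 277 and 229 CPM at 72 hpf and 262 and 367 CPM at 48 hpf, while the other cells had 123 and 193 CPM and 98.1 and 143 CPM and the Epicardium cluster 2928 and 3164 CPM and 1000 and 283 CPM. The summed endothelial, leukocyte, epidermal and skeletal muscle lists were each lower in Bulbus arteriosus than in the other cells in 4 of 4 libraries, and the RFP reporter had 12.4 to 55.0 CPM, against 101 to 821 CPM in the other cells.

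Over all genes, mean log2(CPM + 10) of Bulbus arteriosus was closest to that of Neural crest, with Pearson r = 0.971 over 25434 genes, then to Mesoderm progenitors at 0.961 and Epicardium at 0.957. Genes are not independent replicates, the clusters share libraries, and these r are a description. Summed elastic fibre genes had 5568 and 5277 CPM in Bulbus arteriosus at 72 hpf and 1186 and 1060 CPM at 48 hpf. In Epicardium the same list had 1693 and 2168 CPM at 72 hpf and 1176 and 814 CPM at 48 hpf, and in Neural crest 1393 and 1137 CPM and 785 and 540 CPM. At 48 hpf the elastic fibre sum of the cluster was therefore close to that of Epicardium in the sqet31Et library.

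Genes that set the cluster apart were sought as those at least 2-fold higher than in the other annotated cells in 4 of 4 libraries, among genes with at least 50 UMIs in the cluster. Since the cells were clustered on these same values, the ratios are a description and were not tested. Of 5339 genes, 296 (5.54%) were higher and 106 (1.99%) were lower. The limit of 50 UMIs counts the cluster only, so that genes low in it drop out more often. The numbers of higher and lower genes can therefore not be weighed against each other. The 15 with the highest mean ratio are given next. Gene symbols in capitals are those under which the annotation table lists a zebrafish gene by its human name, with the Ensembl identifier added where several copies share it.

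Loxa, a lysyl oxidase that crosslinks elastin and collagen, had 1874 and 1914 CPM at 72 hpf and 23.4 and 6.64 CPM at 48 hpf in Bulbus arteriosus cells, against 30.9 and 46.2 CPM and 0.511 and 0.269 CPM in the other cells. Its log2 ratio to the other cells was 5.36 ± 0.54 (SD, n = 4), the steadiest of the leading 5 genes, although the level itself was far higher at 72 hpf. At 48 hpf the ratio of loxa rested on only 14 and 3 UMIs in the cluster. Htra1a, a secreted serine protease of the matrix, had 279 and 378 CPM at 72 hpf and 13.3 and 26.5 CPM at 48 hpf, at a ratio of 5.60 ± 0.97. ASPN, a small leucine-rich proteoglycan, had the highest mean ratio, 5.97 ± 1.45, with only 23 and 14 UMIs at 72 hpf and 9 and 7 UMIs at 48 hpf.

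Fbln5 followed at 4.64 ± 0.98. Thbs2b, a thrombospondin, had a ratio of 4.70 ± 0.67, with 55.7 and 75.9 CPM at 72 hpf and 68.4 and 19.9 CPM at 48 hpf. Pcolcea, which enhances the cleavage of procollagen, had 350 and 360 CPM at 72 hpf and 234 and 128 CPM at 48 hpf, and a ratio of 4.35 ± 0.89. Mxra8b, an immunoglobulin-domain adhesion protein, had a ratio of 4.30 ± 0.64, with 450 and 422 CPM at 72 hpf and 86.7 and 117 CPM at 48 hpf. The secreted olfactomedin-domain gene OLFML3 (ENSDARG00000061852) showed the smallest spread of the 15, at 4.38 ± 0.25.

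The remaining leading genes were of other kinds. The neutrophil-attracting chemokine cxcl8b.1 had 17.9 and 24.7 CPM at 72 hpf and 36.7 and 126 CPM at 48 hpf, and its ratio, which averaged 5.02, was thus carried most by the sqet33mi59BEt 48 hpf library. Cyp2ad2 and cyp1c2, cytochrome P450 genes, had ratios of 4.96 ± 0.82 and 4.28 ± 1.54. They ran in opposite directions between stages, with cyp2ad2 at 81.4 and 98.8 CPM at 72 hpf and 5.00 and 6.64 CPM at 48 hpf, and cyp1c2 at 5.77 and 15.9 CPM at 72 hpf and 65.1 and 104 CPM at 48 hpf. CLDN11 (ENSDARG00000020031), a tight-junction claudin, spread the most, with an SD of 2.47, since it stood at 3.34 and 39.8 CPM in the 2 libraries of 48 hpf. C1QTNF6, a C1q-related secreted protein, had a ratio of 4.75 ± 1.78 and wfdc2, a WAP-domain protein, 4.49 ± 1.03. The ratio of si:dkeyp-106c3.1, at 4.97 ± 1.94, is a lower bound, because the other cells of 1 library had 0 UMIs and were put at 3.

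**Figure D2:**
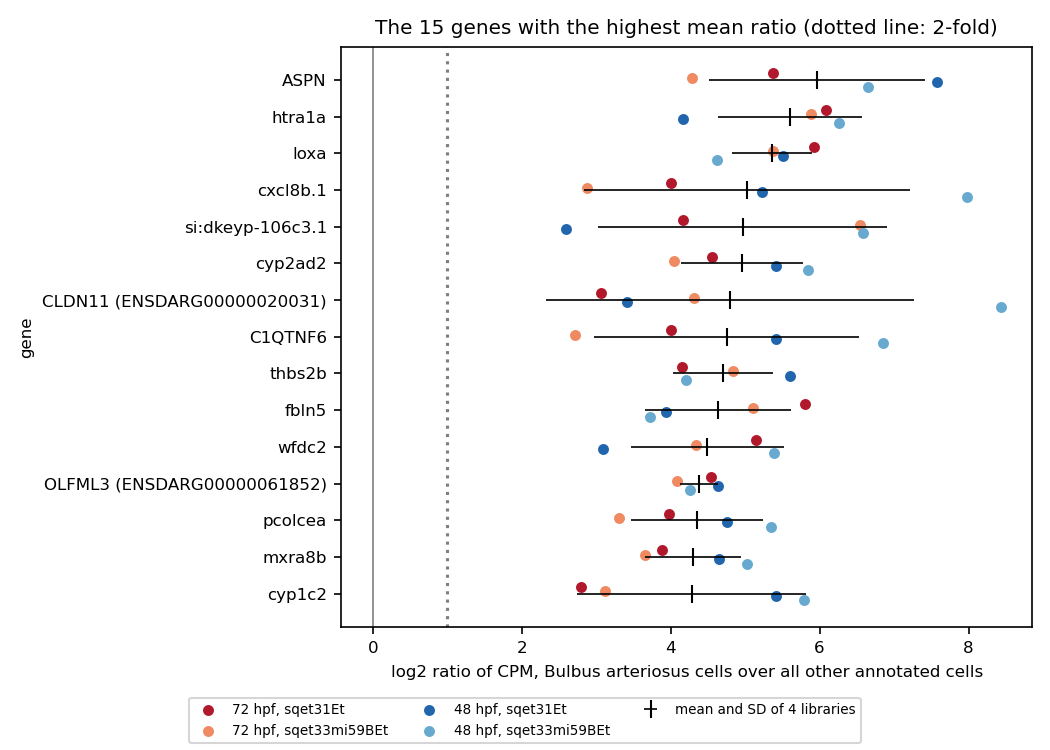
Log2 ratio of CPM in Bulbus arteriosus cells over all other annotated cells for the 15 genes with the highest mean, with 1 point per library and the mean and SD of 4 libraries in black. Every point lies to the right of the dotted 2-fold line, and CLDN11 (ENSDARG00000020031) and cxcl8b.1 spread most, with their highest point in the sqet33mi59BEt library of 48 hpf.

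Matricellular and adhesive matrix genes were often raised over the other cells. The gene lists here and below were chosen with earlier results of these data known. Their counts beside those of all genes are therefore a description and no independent evidence. Of the 26 matricellular and adhesive matrix genes, all matched, 25 had 50 UMIs. Of these, 17 were at least 2-fold higher in 4 of 4 libraries while 2 were lower, against 5.54% and 1.99% of all genes. Sparc, a collagen-binding matrix protein, had a ratio of 1.72 ± 0.50. Chemokines and surface signals had a like share, 11 of 16. Of elastic fibre genes 6 of 12 were higher, of mural receptors 5 of 10 and of collagens 6 of 17. Summed matricellular genes had 11671 and 14443 CPM at 72 hpf, against 8054 and 11731 CPM in Neural crest, the most similar cluster. At 48 hpf they had 7344 and 8450 CPM, against 3911 and 4677 CPM. Chemokines and surface signals summed to 5207 and 6024 CPM at 72 hpf, against 5873 and 6218 CPM in Epicardium. At 48 hpf the sums were 7623 and 6974 CPM, against 8747 and 5378 CPM. Mural sums at 72 hpf were 2263 and 2258 CPM, against 2257 and 2782 CPM in Epicardium. At 48 hpf they were 1563 and 1285 CPM, against 1617 and 1840 CPM. Summed collagens at 72 hpf were higher in Mesoderm progenitors, at 6714 and 5394 CPM, against 5013 and 3982 CPM, but not at 48 hpf. Mfap2, a microfibril protein, was raised with little spread, at 3.22 ± 0.27, as was col12a1a, a fibril-associated collagen, at 3.89 ± 0.44. Col1a1a, the main fibrillar collagen, had a ratio of -0.01 ± 0.21 and was not above the other cells. No member of the cell cycle list (0 of 18) or of the immediate early list (0 of 21) was 2-fold higher in 4 of 4 libraries.

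Contractile smooth muscle genes were higher than in the other cells summed mainly at 72 hpf. Of the 13 with 50 UMIs, 11 were at least 2-fold higher than in the other cells in both 72 hpf libraries, against 4 in both 48 hpf libraries. The limit of 50 UMIs was summed over both stages, and the 72 hpf libraries together held more UMIs of the cluster. Genes high only at 72 hpf therefore pass it more readily than genes high only at 48 hpf, and part of this split can come from the limit. Over all 5339 genes these counts were 579 and 550. The median log2 ratio of the list was 1.88 at 72 hpf and 0.06 at 48 hpf, while that of all genes was 0.13 and 0.03. The 4 genes raised in all libraries were actn1, flna, tpm1 and tpm4b, of which tpm4b, a tropomyosin, had the highest ratio at 3.74 ± 0.73. The list did not set the cluster apart from Mesoderm progenitors, the second most similar cluster over all libraries. The summed level at 72 hpf was 5288 and 5695 CPM in Bulbus arteriosus, against 9216 and 11658 CPM in Mesoderm progenitors. At 72 hpf alone, Neural crest (r = 0.961) and Epicardium (0.942) were among the clusters closer than Mesoderm progenitors (0.937). Their sums at 72 hpf were lower than in Bulbus arteriosus, at 2441 and 2482 CPM and at 2096 and 2137 CPM.

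The stages were then compared within the cluster, with edgeR's quasi-likelihood test on UMIs summed over the cells of each library and p-values adjusted by Benjamini-Hochberg over 5430 genes. Between 72 hpf and 48 hpf, 254 genes (4.68%) rose and 216 (3.98%) fell at an adjusted p under 0.05. The libraries of the 2 stages did not overlap for 253 and 214 of them. This is no added evidence, because the test itself favours genes whose libraries are apart. Of the 254 that rose, the change differed from that of the other annotated cells, in the same direction, for 119, and of the 216 that fell for 104, by the interaction of stage and cell group. Without the sqet33mi59BEt 48 hpf library 155 rose and 151 fell, without the sqet31Et 48 hpf library 124 and 111.

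Elastic fibre genes moved in both directions. Of 12 tested, 5 rose and 1 fell, against 4.68% and 3.98% of all genes, and the median change of the list was 1.07 on the log2 scale, against 0.01 for all genes. The 5 include elnb and fbln5, by which the cluster was named, so the count is in part a count of the markers. Elnb, with 1248 and 554 UMIs at 72 hpf and 0 at 48 hpf, was at least 297-fold higher at 72 hpf when 48 hpf is put at 3 UMIs over both libraries (adjusted p = 3.17e-07). Loxa rose by 6.84 ± 0.54 (log2 fold change ± SE, adjusted p = 6.96e-07) and fbln5 by 5.44 ± 0.49 (adjusted p = 3.51e-06). Loxl1, a lysyl oxidase-like enzyme needed for elastic fibre upkeep in mice, had 150 and 162 CPM at 72 hpf and 0 and 8.85 CPM at 48 hpf and rose by 5.18 ± 0.68. Mfap5, another microfibril protein, rose by 1.51 ± 0.44 (adjusted p = 0.0418), a call lost in 5 of 9 other settings. Mfap2 had 570 and 411 CPM at 72 hpf and 444 and 400 CPM at 48 hpf, a change of 0.16 ± 0.37 (adjusted p = 0.873).

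The gene of this list that fell was loxl2a, a lysyl oxidase-like enzyme that acts on collagen IV, with 26.9 and 115 CPM at 72 hpf, against 385 and 392 CPM at 48 hpf, a log2 change of -2.71 ± 0.47 (adjusted p = 0.00113). The 48 hpf cells therefore had mfap2 RNA and more loxl2a than the 72 hpf cells, but no detectable elnb and far less loxa, fbln5 and loxl1. Elnb and loxa also rose in the other annotated cells. For loxa the change in the cluster did not pass the test of a difference from them (0.53 ± 0.53, adjusted p = 0.785). That of elnb did not pass either, but this test cannot decide for elnb, since both groups had 0 UMIs at 48 hpf. Erythrocytes, which should lack elnb, had 38.6 and 45.9 CPM of it at 72 hpf. The part of free RNA in the elnb of the other cells was not tested. For fbln5 the rise was greater in the cluster, by 1.71 ± 0.34 (adjusted p = 7.16e-05), and for loxl1 by 3.08 ± 0.64 (adjusted p = 1.47e-04). Without the sqet31Et 72 hpf library neither difference was past the threshold (1.26, adjusted p = 0.158 for fbln5 and adjusted p = 0.0698 for loxl1), and that of loxl1 was also lost in DESeq2 (adjusted p = 0.112).

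Smooth muscle contractile genes rose as a list. Of 13 tested, 8 rose and 0 fell in edgeR and in DESeq2, against 4.68% and 3.98% of all genes in edgeR. The median log2 change was 2.00, and at an unadjusted p under 0.05 the counts were 10 and 0. Without the sqet31Et 48 hpf library 5 of 14 rose and without the sqet33mi59BEt one 7 of 15. Acta2, smooth muscle actin, had 379 and 105 UMIs, or 243 and 185 CPM, at 72 hpf and 9 and 4 UMIs at 48 hpf, and rose by 4.07 ± 0.49 (adjusted p = 4.49e-05). It was found in 86 of 663 and 60 of 512 cells at 72 hpf, and 10 cells held 41.2% and 43.8% of its UMIs there. In the other cells summed acta2 had 47.4 and 59.1 CPM at 72 hpf and 118 and 31.1 CPM at 48 hpf. Mesoderm progenitors had far more at 72 hpf, at 1731 and 2268 CPM, and 13.4 and 5.91 CPM at 48 hpf, while Myocardium had 103 and 104 CPM at 72 hpf and 508 and 390 CPM at 48 hpf. The change differed between the cluster and the other cells by 4.79 ± 0.41 (adjusted p = 1.24e-28), so that acta2 was above the other cells at 72 hpf and below them at 48 hpf.

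Mylka, the myosin light chain kinase of smooth muscle, had 277 and 247 CPM at 72 hpf and 11.7 and 26.5 CPM at 48 hpf and rose by 3.73 ± 0.48. Tagln, an actin-binding protein of smooth muscle, had 158 and 97.0 CPM at 72 hpf and 23.4 and 11.1 CPM at 48 hpf and rose by 2.82 ± 0.50. At 72 hpf 10 cells held 52.8% and 54.5% of its UMIs, and Mesoderm progenitors had 1554 and 1385 CPM, against 5.19 and 4.73 CPM at 48 hpf. Myl9a and myl6, light chains of the same myosin, rose by 2.37 ± 0.39 and 2.06 ± 0.39, and tpm4b by 2.00 ± 0.36. Each of these rises was larger than in the other cells summed (adjusted p of the difference from 3.00e-16 to 6.75e-04). The summed contractile list, however, rose more in Mesoderm progenitors than in Bulbus arteriosus. It went from 1849 and 1912 CPM at 48 hpf to 9216 and 11658 CPM at 72 hpf there, and from 3258 and 3617 CPM to 5288 and 5695 CPM in Bulbus arteriosus. A difference from Mesoderm progenitors alone was not tested. Without the sqet31Et 72 hpf library the difference was lost for tagln (1.78, adjusted p = 0.116) and tpm4b (1.17, adjusted p = 0.214), and without the sqet31Et 48 hpf library the rise was lost for myl6 (adjusted p = 0.112) and tpm4b (adjusted p = 0.058). Flna, the actin crosslinker filamin A, had 673 and 928 CPM at 72 hpf and 624 CPM in both 48 hpf libraries, and tpm4a changed by -0.43 ± 0.39 (adjusted p = 0.618). The smooth muscle myosin heavy chain MYH11 (ENSDARG00000009782), outside the naming rule and chosen after its values were seen, had 248 and 128 UMIs at 72 hpf and 3 and 0 UMIs at 48 hpf.

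**Figure D3:**
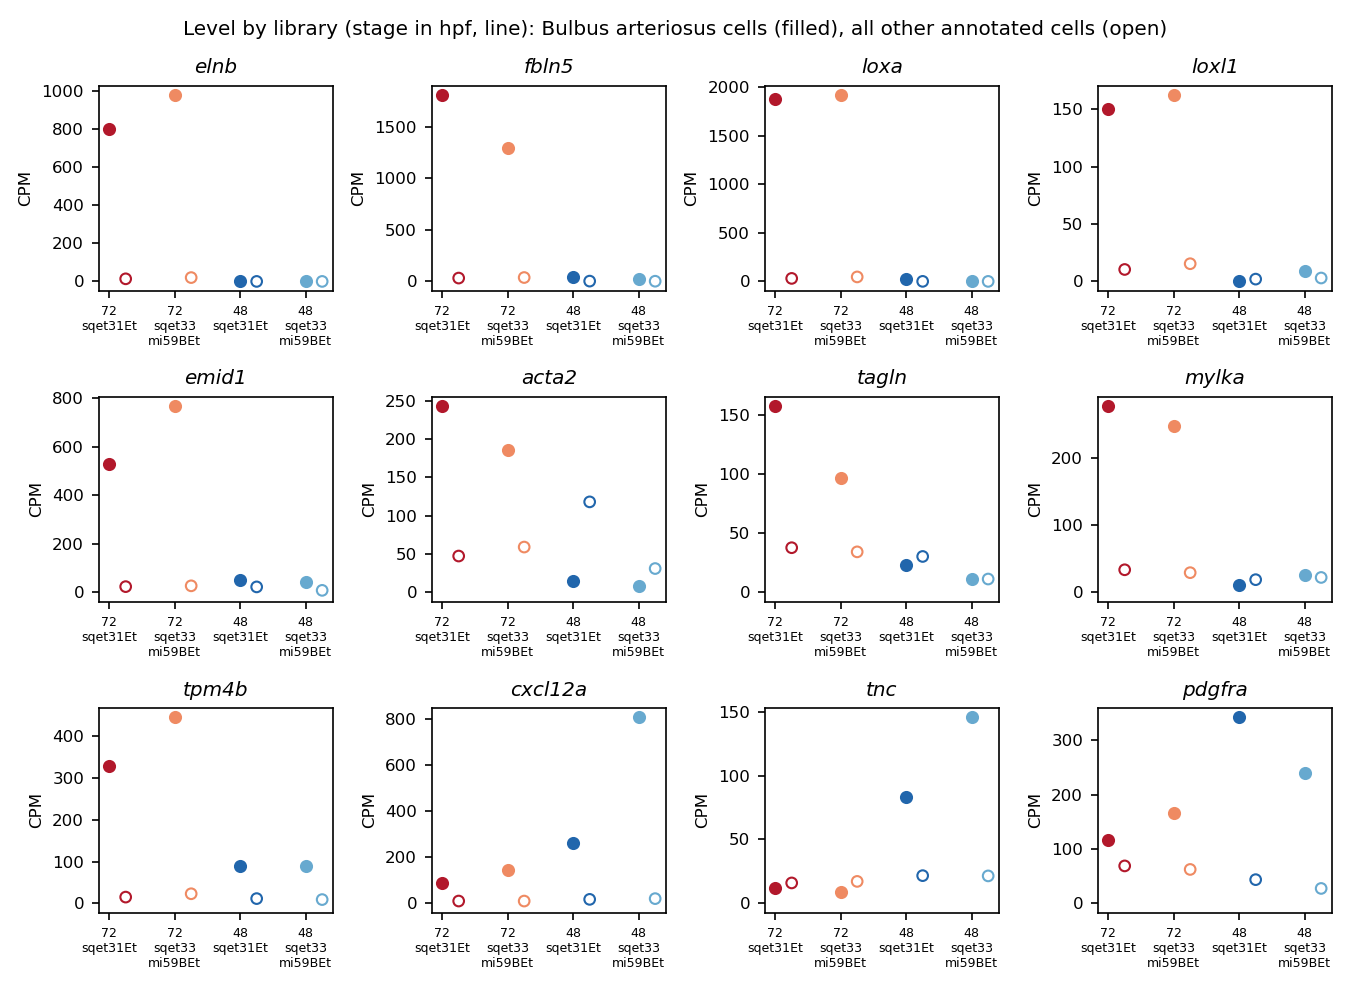
Levels (CPM) of 12 named genes by library, with Bulbus arteriosus cells as filled points and all other annotated cells as open points, 72 hpf left of 48 hpf. Elnb, fbln5, loxa, loxl1, emid1, acta2, tagln, mylka and tpm4b are highest in the filled 72 hpf points, as for acta2 at 243 and 185 CPM, whereas cxcl12a, tnc and pdgfra are highest in the filled 48 hpf points, as for tnc at 83.4 and 146 CPM.

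Within the 72 hpf cells, those with an elnb UMI (331 and 205 cells) were also deeper, with medians of 2352 and 1187 UMIs, against 1566 and 786 UMIs in those without. At their own depth they had 2388 and 1996 CPM of fbln5, against 972 and 683 CPM in cells without an elnb UMI. Acta2 stood at 328 and 225 CPM in them, against 121 and 151 CPM. Tagln, at 149 and 107 CPM with elnb and 169 and 88.6 CPM without, had no common direction in the 2 libraries. The chemokine cxcl12a was lower in cells with an elnb UMI, at 41.4 and 45.8 CPM, against 157 and 230 CPM without. These values are a description, since the split used one of the markers. Few cells carried much of some genes: among all 72 hpf cells of the cluster, 10 cells held 41.2% and 43.8% of the acta2 UMIs. For cxcl12a 10 cells held 54.7% and 58.5%.

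Of 25 matricellular genes tested, 8 rose and 2 fell, against 4.68% and 3.98% of all genes, and without the sqet31Et 48 hpf library 4 rose and 2 fell. Emid1, an EMI-domain matrix protein, had 827 and 435 UMIs, or 530 and 767 CPM, at 72 hpf and 30 and 19 UMIs at 48 hpf and rose by 3.69 ± 0.39 (adjusted p = 1.86e-05). Its rise was larger than in the other cells by 3.13 ± 0.32 (adjusted p = 1.00e-19). The nidogens of basement membranes rose too, nid1a by 2.91 ± 0.39 and nid2a by 1.98 ± 0.36 (lost without the sqet31Et 48 hpf library and with cells thinned), and postnb rose by 1.48 ± 0.37 (adjusted p = 0.0167), a call lost without either 48 hpf library. Postnb, by which the cluster was named, also rose in the other annotated cells, and its change did not pass the test of a difference from them. Tnc, the tenascin of early mesenchyme, fell to 12.2 and 8.82 CPM at 72 hpf, against 83.4 and 146 CPM at 48 hpf (-3.42 ± 0.50, adjusted p = 2.75e-04), and the follistatin-like gene fstl1a fell too (adjusted p = 0.00189). The summed list went from 7344 and 8450 CPM at 48 hpf to 11671 and 14443 CPM at 72 hpf in the cluster. It also rose in Neural crest, from 3911 and 4677 CPM to 8054 and 11731 CPM. A difference from Neural crest alone was not tested.

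Collagens changed little. Of 17 tested, 2 rose and 0 fell in edgeR and in DESeq2, and at an unadjusted p under 0.05 the counts were 4 and 4. Over all genes 4.68% rose and 3.98% fell in edgeR. The 2 collagens that rose were col6a4a, a collagen VI chain, with 256 and 319 CPM at 72 hpf and 110 and 48.7 CPM at 48 hpf (1.76 ± 0.39, adjusted p = 0.00751), and col5a2a, which rose by 1.73 ± 0.36 (adjusted p = 0.00416). Without the sqet33mi59BEt 48 hpf library 0 of 18 rose and 3 fell, so that both calls were lost, and without the sqet31Et one that of col5a2a was lost. Col1a2 had 1469 and 1023 CPM at 72 hpf and 575 and 538 CPM at 48 hpf, which missed the threshold at 1.11 ± 0.39 (adjusted p = 0.0907). Among genes that fold and modify collagen, 3 of 30 rose and 0 fell (7 and 0 at an unadjusted p under 0.05, 2 and 0 in DESeq2), with a median of 0.35. These were plod2, a lysyl hydroxylase, p4hb, the disulphide isomerase subunit of prolyl hydroxylase, and the calcium-binding calua, and each lost its call in 2 or more of the other settings. Serpinh1b, the collagen chaperone, was at 622 and 939 CPM at 72 hpf and 777 and 759 CPM at 48 hpf.

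Of 10 mural and nitric oxide response genes 4 rose and 1 fell, but 1 of 11 rose and 0 fell without the sqet33mi59BEt 48 hpf library and 2 of 11 and 0 without the sqet31Et 72 hpf one. With all libraries, 4.68% of all genes rose and 3.98% fell. Rgs5a, a pericyte gene that regulates G protein signalling, had 236 and 224 CPM at 72 hpf and 21.7 and 50.9 CPM at 48 hpf and rose by 2.60 ± 0.46 (adjusted p = 0.00121). Cavin1b and cav1, structural proteins of caveolae, rose by 1.76 ± 0.38 and 1.27 ± 0.36, calls lost in 1 and in 3 of 9 other settings. Gucy1b1, a subunit of the guanylate cyclase that senses nitric oxide, had 49 and 17 UMIs at 72 hpf and 3 and 0 UMIs at 48 hpf (3.34 ± 0.77, adjusted p = 0.0101), lost in 3 of 8. Pdgfra, the receptor typical of mesenchyme, fell to 116 and 166 CPM at 72 hpf, against 344 and 241 CPM at 48 hpf (-1.16 ± 0.35, adjusted p = 0.0462), and lost its call in 7 of 9 other settings. Pdgfrb, the receptor of mural cells, was at 62.8 and 198 CPM at 72 hpf and 76.7 and 106 CPM at 48 hpf, and ednraa, an endothelin receptor, at 463 and 235 CPM and at 290 and 199 CPM.

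Of 16 chemokines and surface signals, 1 rose and 3 fell, against 4.68% and 3.98% of all genes. Without the sqet33mi59BEt 48 hpf library 0 rose and 1 fell, and with cells thinned 1 and 1. Cxcl12a had 89.1 and 145 CPM at 72 hpf and 262 and 810 CPM at 48 hpf, a change of -2.37 ± 0.48 (adjusted p = 0.00369), which was not past the threshold without the sqet33mi59BEt 48 hpf library (-1.21, adjusted p = 0.152) or with cells thinned (-2.01, adjusted p = 0.0516). At 48 hpf 10 cells held 73.9% and 76.2% of its UMIs. Cxcl12b, its paralogue, fell to 7.05 and 17.6 CPM, against 107 and 124 CPM at 48 hpf (-3.47 ± 0.48, adjusted p = 1.88e-04). Ackr3b, the receptor that removes Cxcl12, fell by 1.89 on the log2 scale (adjusted p = 0.0108). The ephrin receptor epha7 rose by 2.11 ± 0.41, to 378 and 291 CPM at 72 hpf, against 100 and 48.7 CPM at 48 hpf. Without the sqet33mi59BEt 48 hpf library the calls of epha7 (adjusted p = 0.0656) and ackr3b (adjusted p = 0.080) were lost.

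Among outflow tract and second heart field factors 2 of 13 rose and 2 fell, against 4.68% and 3.98% of all genes. Tbx20, a T-box factor of the heart, had 91.0 and 109 CPM at 72 hpf and 26.7 and 8.85 CPM at 48 hpf (2.35 ± 0.48, adjusted p = 0.00402), and its change was opposite in sign to that of the other cells, with a difference of 3.76 ± 0.39 (adjusted p = 1.59e-18). Foxc1b, a forkhead factor of mesenchyme, rose by 1.56 ± 0.43 (adjusted p = 0.0313), but not without the sqet31Et 48 hpf library (0.92, adjusted p = 0.464). The rise of tbx20 was lost without the sqet33mi59BEt 48 hpf library (adjusted p = 0.0581) and with cells thinned (adjusted p = 0.0517). Isl2b, an islet factor, had 4 and 1 UMIs at 72 hpf and 27 and 24 UMIs at 48 hpf and fell by 4.34 on the log2 scale (adjusted p = 2.48e-04). Tbx1, a factor of the second heart field, was raised over the other cells in 4 of 4 libraries (2.43 ± 0.42), as was cited4a (2.01 ± 0.27), and neither changed between stages at the threshold.

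In the mesenchyme and neural crest list, nfia, a nuclear factor I gene, rose by 3.46 ± 0.56 (adjusted p = 6.34e-04) and sox9a, a chondrogenic factor, fell by 1.84 on the log2 scale (adjusted p = 0.0219), each 1 of 6, and the call of sox9a was lost in 4 of 9 other settings. Twist1a, a mesenchymal factor, was at 132 and 150 CPM at 72 hpf and 158 and 425 CPM at 48 hpf, raised over the other cells at both stages (3.10 ± 0.61). Of 12 TGF-beta and BMP genes, 0 rose and 0 fell in edgeR and in DESeq2, with 1 higher and 1 lower at an unadjusted p under 0.05 in edgeR. Tgfb2, a ligand of the family, had 36 and 17 UMIs at 72 hpf and 5 and 1 UMIs at 48 hpf (2.11 ± 0.66, adjusted p = 0.0567). Of the immediate early genes 1 of 21 rose and 0 fell (4 and 2 at an unadjusted p under 0.05, 1 and 0 in DESeq2), namely egr1 (1.74 ± 0.46, adjusted p = 0.0219, lost in 4 of 9 other settings), and of the YAP targets 1 of 11 rose, ccn2b, a secreted matrix regulator (adjusted p = 0.0306). Over all genes 4.68% rose and 3.98% fell, so 1 call in so short a list is not a result about the list.

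**Figure D4:**
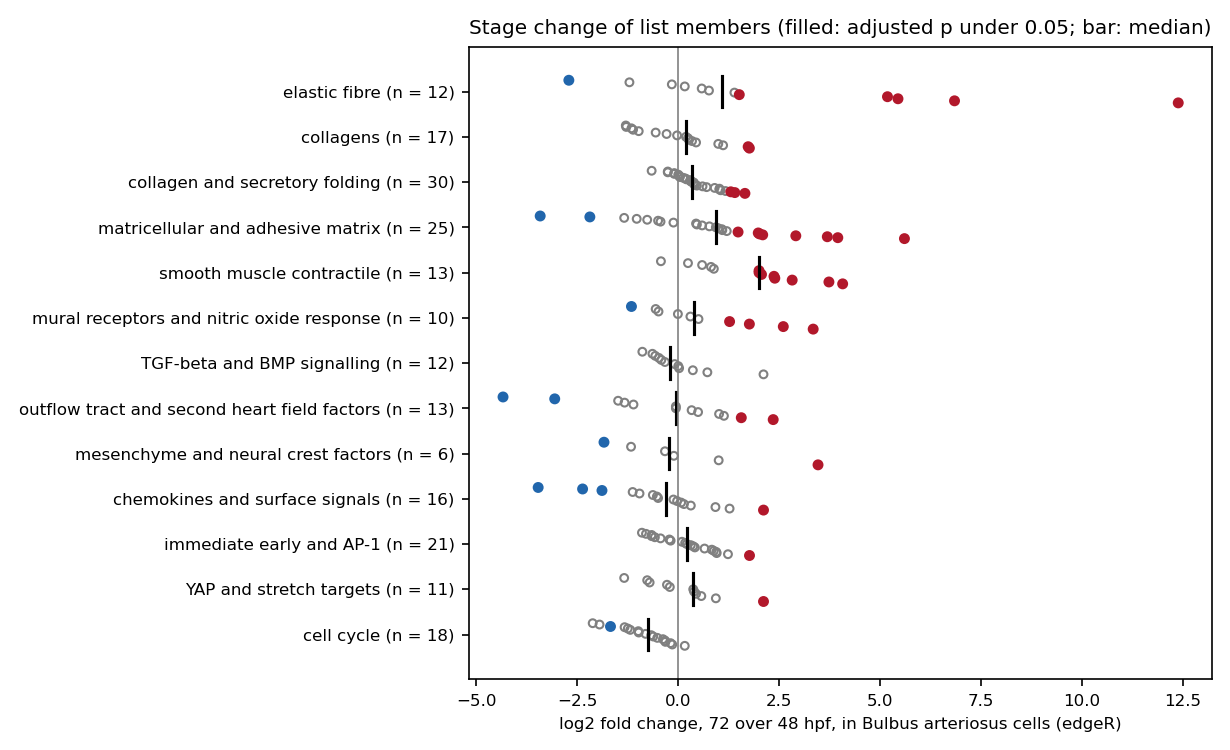
Log2 fold change of 72 over 48 hpf in Bulbus arteriosus cells for each tested member of 13 gene lists, filled where the adjusted p was under 0.05 (red higher at 72 hpf, blue lower), with a black bar at the list median. Smooth muscle contractile genes lie furthest to the right, with a median of 2.00 and 8 of 13 filled, and elnb is the isolated point at 12.38, a fitted value that depends on the prior count since 48 hpf had 0 UMIs.

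The 10 largest rises were not all genes of the outflow wall. Besides elnb they held si:cabz01070274.1, with 509 and 582 CPM at 72 hpf and 0 UMIs at 48 hpf, at least 185-fold higher, and RASL12, a Ras-like GTPase, with 70.5 and 79.4 CPM at 72 hpf and 0 UMIs at 48 hpf, at least 25.5-fold higher. Both were lower in the other cells at 72 hpf, at 19.1 and 19.4 CPM and at 1.63 and 2.55 CPM, and their rises differed from those of the other cells (adjusted p = 5.61e-14 and 0.0268), for RASL12 in 3 of 7 other settings only. Epd, an ependymin, had 109 and 1156 CPM at 72 hpf, from UMIs in 2.26% and 2.34% of the cells, and 0 and 2.21 CPM at 48 hpf.

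The other 6 were prss1 and prss59.2, trypsins of the exocrine pancreas, the apolipoprotein apoa4b.1, the retinol-binding rbp2b, the urate oxidase uox and pvalb5, a parvalbumin of fast muscle. All 6 had 0 UMIs at 48 hpf and were at least 14.8- to 39.1-fold higher at 72 hpf. In these same libraries the other cells had more of each: for rbp2b 88.4 and 175 CPM in Bulbus arteriosus, against 111 and 248 CPM in the other cells, and for uox 42.3 and 58.2 CPM, against 85.4 and 153 CPM. The change of none of the 6 differed from that of the other cells at the threshold (the lowest adjusted p, for rbp2b, was 0.50). The part of free RNA in these values was not tested.

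The 10 largest falls held developmental signals and genes of other tissues. CYP26A1, which breaks down retinoic acid, had 2.56 and 0 CPM at 72 hpf and 102 and 33.2 CPM at 48 hpf (-5.12 ± 0.74). FGF10 (ENSDARG00000030932), a growth factor of mesenchyme, had 1 and 0 UMIs at 72 hpf and 23 and 11 at 48 hpf. LIN28A (ENSDARG00000016999), an RNA-binding protein of immature cells that blocks let-7, had 1.92 and 3.53 CPM at 72 hpf and 142 and 95.1 CPM at 48 hpf, in 22.9% and 21.8% of the 48 hpf cells (-5.57 ± 0.56, adjusted p = 9.89e-06). Artnb, a ligand of the GDNF family, had 0 UMIs at 72 hpf and 53.4 and 39.8 CPM at 48 hpf, at least 33.7-fold lower at 72 hpf, and clcf1, a cytokine, was at least 18.2-fold lower.

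GEM, a small GTPase that restrains calcium channels, had 1.28 and 0 CPM at 72 hpf and 35.0 and 46.5 CPM at 48 hpf, and hpcal4, a calcium sensor, 1.28 and 3.53 CPM and 88.4 and 66.4 CPM. For CYP26A1, LIN28A (ENSDARG00000016999), artnb, GEM and hpcal4 the fall was larger than in the other cells (adjusted p of the difference from 2.31e-09 to 0.00133). Without the sqet33mi59BEt 72 hpf library this was lost for CYP26A1, LIN28A (ENSDARG00000016999) and artnb (adjusted p = 0.259, 0.44 and 0.0625), and for artnb also without the sqet31Et one (adjusted p = 0.154). Si:dkey-108k21.10 fell in both, by 5.19 in the cluster and by 3.91 in the other cells on the log2 scale. The lens crystallin CRYBA4 had 0 UMIs at 72 hpf and 18 and 8 UMIs at 48 hpf, while the other cells had 66.5 and 225 CPM at 48 hpf. The haemoglobin gene hbbe3 had 0 and 1.76 CPM at 72 hpf and 128 and 102 CPM at 48 hpf, against 87.3 and 115 CPM in the other cells at 48 hpf.

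Over all genes, the interaction of stage and cell group was past the threshold for 638 of 14833 genes, 353 (2.38%) more positive and 285 (1.92%) more negative in Bulbus arteriosus than in the other cells. The 5 largest in each direction all had 0 UMIs in the cluster at 1 stage, so that their fitted sizes depend on the prior count. At the positive end these were si:cabz01070274.1, CTNNA2, an alpha-catenin, ZFYVE26, TNNI2 (ENSDARG00000035958), a fast troponin I, and vwde. CTNNA2 had 13.5 and 35.3 CPM at 72 hpf and 0 UMIs at 48 hpf in the cluster, while the other cells had 3.69 and 5.01 CPM and 7.54 and 4.27 CPM. At the negative end stood artnb, RET, a receptor for ligands of the GDNF family, CPED1, SLC43A2 (ENSDARG00000061120) and si:dkey-85k15.4, and all but artnb rested on 11 or fewer UMIs in the 48 hpf cells. A small p-value of this test can go with a wide spread between pools. For col2a1a, with 15 and 261 UMIs in the cluster at 48 hpf, the adjusted p of the difference was 1.24e-28 in edgeR and 0.107 in DESeq2.

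The cluster held a larger share of the annotated cells at 72 hpf. It made up 6.02% and 5.22% of annotated cells at 72 hpf (exact binomial 95% intervals 5.58 to 6.48% and 4.79 to 5.68%) and 3.55% and 1.77% at 48 hpf (3.13 to 4.01% and 1.47 to 2.11%). The means were 5.62% ± 0.564 and 2.66% ± 1.26 (SD, n = 2 each). The libraries of the stages did not overlap, but with 2 against 2 the exact two-sided permutation test cannot go below p = 0.333, which is the value it gave. Intervals cover counting error only. Since the cluster was drawn from genes that themselves differed between stages, its share is a share of the annotation and not of a tissue. Barcodes without annotation held 43150067 UMIs at 72 hpf and 120149460 at 48 hpf. At 48 hpf they had 4392 UMIs of postnb and 449 of fbln5, against 2056 and 157 in all annotated cells. At 72 hpf they had 4459 and 6461, against 5932 and 4777. How these barcodes would change the share was not tested.

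Fewer of the cells were called in S or G2M phase at 72 hpf, 23.1% and 32.4%, than at 48 hpf, 58.5% and 42.9% (exact permutation p = 0.333, the smallest that 2 against 2 allows). The other annotated cells had 44.8% and 51.0% at 72 hpf and 50.5% and 57.7% at 48 hpf. Erythrocytes, at medians of 601 to 1029 UMIs, had 74.1% and 64.0% at 72 hpf and 77.1% and 89.4% at 48 hpf. Their share was thus also higher at 48 hpf, and how far the phase calls depend on depth was not tested. UMIs of 33 cell cycle genes, which may be among the genes behind those calls, made up 24.0 and 30.5 per 10000 at 72 hpf and 38.7 and 31.6 per 10000 at 48 hpf. In these sums, where deeper cells weigh more, the sqet33mi59BEt libraries of the 2 stages were nearly level. With each cell thinned to 500 UMIs the means were 27.6 ± 3.39 per 10000 at 72 hpf and 46.3 ± 3.65 at 48 hpf (SD, n = 2 each). The part of free RNA in the phase calls was not tested. Barcodes without annotation are not in these shares, and how they would change them was not tested. Of 18 cell cycle genes tested in edgeR, 0 rose and 1 fell (0 and 9 at an unadjusted p under 0.05, 0 and 0 in DESeq2), against 4.68% and 3.98% of all genes in edgeR. The 1 that fell was mki67, a proliferation marker, with 23.7 and 42.3 CPM at 72 hpf and 128 and 61.9 CPM at 48 hpf (adjusted p = 0.0219). The median change of the list was -0.74.

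**Figure D5:**
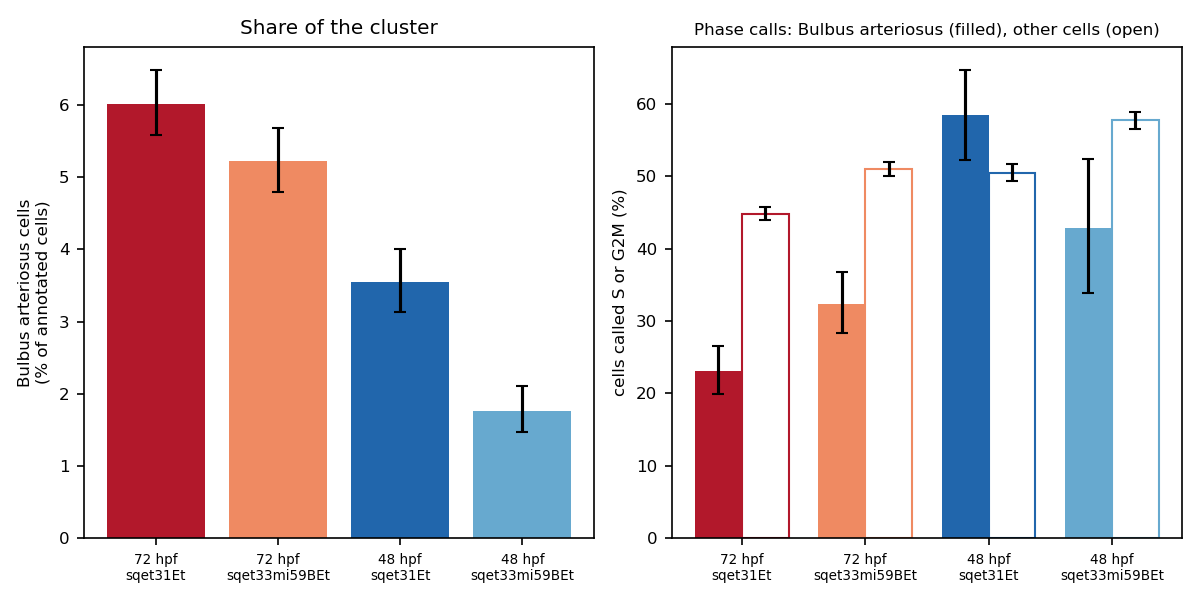
Left, Bulbus arteriosus cells as a percentage of the annotated cells of each library. Right, the percentage of cells called S or G2M in Bulbus arteriosus (filled) and in all other annotated cells (open), both with exact binomial 95% intervals and 72 hpf left of 48 hpf. The share of the cluster was 6.02% and 5.22% at 72 hpf, above both 48 hpf libraries, and its S or G2M share at 72 hpf, 23.1% and 32.4%, was below both.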

How the data were processed

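Hearts of zebrafish embryos were measured by single-cell RNA sequencing in 4 libraries, 2 at 72 hpf and 2 at 48 hpf. The deposited UMI counts had been made by the authors with Cell Ranger on GRCz11 and are not normalized. The deposited cell table, which the authors made with Seurat, gives each cell's library, cluster, cell cycle phase and percent of mitochondrial UMIs, and these were used as given. The authors' doublet mark in that table was kept: the 34676 annotated barcodes are marked singlet and the 17771 without annotation doublet, and only annotated barcodes were compared. The paper describes limits on gene number, mitochondrial share and haemoglobin share besides doublet calling, so the mark need not mean a doublet. Barcodes with many genes were among those it left out.

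Counts were summed over the cells of the cluster, and over all other annotated cells, in each library. Genes with at least 50 UMIs in the cluster entered the ratios to the other cells, which were not tested because the clusters were made from these genes. Stages were compared with edgeR 4.0.16 (R 4.3.3; TMM, quasi-likelihood F test, Benjamini-Hochberg adjustment, threshold 0.05). The SE of a log2 fold change or difference was calculated back, as its absolute size divided by the square root of the F statistic. The difference of the stage change from that of the other cells was tested as an interaction in a fit of both sums. Library was a block in that fit, because both sums of a library come from 1 pool. Shares were compared by exact two-sided permutation (scipy 1.17.1). The fits were first run on simulated counts that gave every gene the same dispersion. This run cannot show how the fits behave where the spread between pools differs from gene to gene, as for col2a1a here. Alternatives were DESeq2 1.42.0, no filter, line as a block, cells thinned to 500 UMIs, genes or clusters left out, and each library left out.

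Named genes were the 3 markers, the 15 with the highest mean ratio, the 10 largest rises and falls with libraries apart, the 5 largest interactions in each direction, and members of the described lists. The cluster and the 24 gene lists were chosen with earlier results of these data known. Of 378 list names, 308 were matched to an identifier. Of the matched names, 37 were told apart from copies by the share of cells with a UMI, among them postnb, loxa and tagln. The copy taken was the one whose shares by cluster were nearest to those the paper gives for its markers. The pattern of these genes over the clusters is therefore not independent of their naming. A further 15, such as sox9a and fstl1a, were given the copy left over. Left out were 55 names whose copies were not told apart and 15 with no match. Reads of near-identical copies could be split between them. Some list members are not reported here.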

Additional observations from a re-analysis of the deposited data

Results flagged for a closer look

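The change between 72 and 48 hpf differed between Bulbus arteriosus and the other annotated cells, by the interaction test, for these 56 genes, each with the log2 difference of the 2 changes. Of these calls, 35 were lost or turned in at least 1 of up to 7 other settings and 21 were kept in all: mxra8b was lost in 7, sox9a, fstl1a and hbbe3 in 6, col6a3 and SLC43A2 (ENSDARG00000061120) in 5, and CLDN11 (ENSDARG00000020031), CPED1, RASL12, cxcl12a, ednraa, plod2 and si:dkey-85k15.4 in 4. It was more positive in Bulbus arteriosus, by the larger amounts, for epd (5.62), acta2 (4.79), tbx20 (3.76), mylka (3.32), emid1 (3.13), loxl1 (3.08), myl6 (2.55), nfia (2.31), calua (2.30), tagln (2.22), fbln5 (1.71) and epha7 (1.69). Smaller positive differences were those of myl9a (1.47), col5a2a (1.47), nid2a (1.47), cavin1b (1.47), foxc1b (1.36), tpm4b (1.34), egr1 (1.29), serpinh1b (1.23), cav1 (1.21), plod2 (1.08), ednraa (0.92) and sparc (0.85). It was more negative, by the larger amounts, for GEM (-6.22), col2a1a (-4.27), hpcal4 (-4.04), CYP26A1 (-3.76), efemp2a (-3.30), hbbe3 (-3.15), cxcl8b.1 (-3.03), tnc (-2.81), LIN28A (ENSDARG00000016999) (-2.71) and CLDN11 (ENSDARG00000020031) (-2.62). Smaller negative differences were those of cyp1c2 (-2.56), col6a1 (-2.23), pdgfra (-1.89), cxcl18b (-1.67), sox9a (-1.51), loxl2a (-1.37), pcolcea (-1.24), fstl1a (-1.11), cxcl12a (-1.09), col6a3 (-1.06) and mxra8b (-0.96). Where Bulbus arteriosus had 0 UMIs at 1 stage, the fitted difference depends on the prior count, and this held for CPED1 (-10.33), CTNNA2 (11.45), RASL12 (9.93), RET (-9.90), SLC43A2 (ENSDARG00000061120) (-10.40), TNNI2 (ENSDARG00000035958) (10.46), ZFYVE26 (10.44), artnb (-9.84), si:cabz01070274.1 (12.13), si:dkey-85k15.4 (-11.84) and vwde (10.41).

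UMIs of the marker genes were also found in the 17771 barcodes that have no annotation, that the authors' table marks as doublets and that no comparison used. Elnb had 2569 UMIs in them at 72 hpf, or 59.5 CPM, and 3 at 48 hpf, postnb 4459 at 72 hpf and 4392 at 48 hpf, and fbln5 6461 at 72 hpf and 449 at 48 hpf. There were 10571 such barcodes at 72 hpf and 7200 at 48 hpf, with 43150067 and 120149460 UMIs in all. The annotated cells held 26750558 and 11545063 UMIs in the 72 hpf libraries and 26051714 and 26447235 UMIs in the 48 hpf libraries. Since the paper also set limits on gene number, mitochondrial share and haemoglobin share, these barcodes need not be doublets.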

How the results depend on the processing

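Of 5430 genes, 470 changed between stages (54.0% of them rose). DESeq2 called 309, no filter 727 (404 rose and 323 fell), and cells thinned to 500 UMIs 138, of which 65.2% rose. Leaving out 1 library gave 235 to 518, the lowest without the sqet31Et and next, at 306, without the sqet33mi59BEt 48 hpf library. A fit with the line as a replicate block called 629 (331 rose and 298 fell). The same lines were used at both stages, but in different pools. The differences between the lines at 72 and 48 hpf had r = 0.045 over 5430 genes. The change differed from that of the other cells for 638 genes (55.3% more positive), for 274 in DESeq2, for 712 without the filter (71.1% more positive), and for 215 to 491 with 1 library left out (215 without the sqet31Et and 364, 70.1% more positive, without the sqet33mi59BEt 72 hpf library, and 491, 65.2% more positive, without the sqet31Et 48 hpf one). Of 296 genes higher in 4 of 4 libraries, a 3-fold limit gave 145 and thinned cells 121, and 1 library left out gave 301 to 327. The share difference was 2.07 to 3.85 points and the S or G2M difference -15.1 to -30.7 points with 1 library left out. Without the sqet33mi59BEt 48 hpf library 2 values turned: the stage change of col2a1a was 0.10 and the interaction of CLDN11 (ENSDARG00000020031) 0.39 (lowest with 1 library left out -4.62 and -4.47), and most col2a1a UMIs of that library lay in 10 cells. Of the 470 stage calls, 315 were kept without the sqet31Et 72 hpf library and 209 without the sqet31Et 48 hpf one.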
